A study of Mus musculus with 10 samples.

Results

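The 43 genes described here encode the enzymes and proteins that remove reactive oxygen species, make and use glutathione and thioredoxin, and bind metals in the cell. The list was written by gene name, and each gene was read at whichever of its transcripts averaged highest. All 43 were found among 37947 gene symbols, of which 12533 had a value above 0 in at least 1 library, and all 43 were among the 10161 genes with a mean level of at least 1 FPKM that were tested. RNA was sequenced from the gastrocnemius muscle, the large calf muscle, of 5 young (6 months) and 5 aged (24 months) male C57BL/6 mice, with 1 library for each mouse. Both groups were untreated mice that differed in age, so the comparison asks which of these transcripts differ between 6 and 24 months. Values are log2 of FPKM, a number of fragments scaled to transcript length and library size, and an FPKM under 1 is listed as 0.

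Contracting muscle makes superoxide in its mitochondria and at its membranes. Superoxide dismutases turn superoxide into hydrogen peroxide, which catalase splits into water and oxygen. Glutathione peroxidases and peroxiredoxins reduce peroxides with electrons from glutathione or thioredoxin, which are restored by NADPH. The transcription factor Nrf2 (gene Nfe2l2), held in check by Keap1, switches on many of these genes through antioxidant response elements, and the zinc-sensing factor Mtf1 switches on the metallothioneins through metal response elements.

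No member had an adjusted p under 0.05 by limma between the ages, where 10 of the 10161 genes tested (0.0984%) had one. At an unadjusted p under 0.05, 1 of 43 members, the glutathione S-transferase Gstm2, was higher in aged muscle and 0 were lower, beside 6.75% of all genes higher and 0.984% lower. The median difference of the members, aged minus young, was 0.12 on the log2 scale, against 0.07 over all genes, with 29 members (67.4%) above 0 and 14 below, beside 61.4% of all genes above 0. With libraries scaled by the median of ratios, 428 genes were higher and 226 lower where 686 and 100 were without it, and 25 of 43 members were above 0. Of the 43 differences, 39 were smaller than 0.5 in size, and the 95% interval of 31 lay between -1 and 1. By the criteria of the study, a 2-fold difference and an unadjusted p under 0.05 in a 2-sample test, 0 of 43 members were called, beside 1.11% of all genes. Bulk RNA cannot separate fewer cells of a type from less RNA in each cell.

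**Figure D1:**
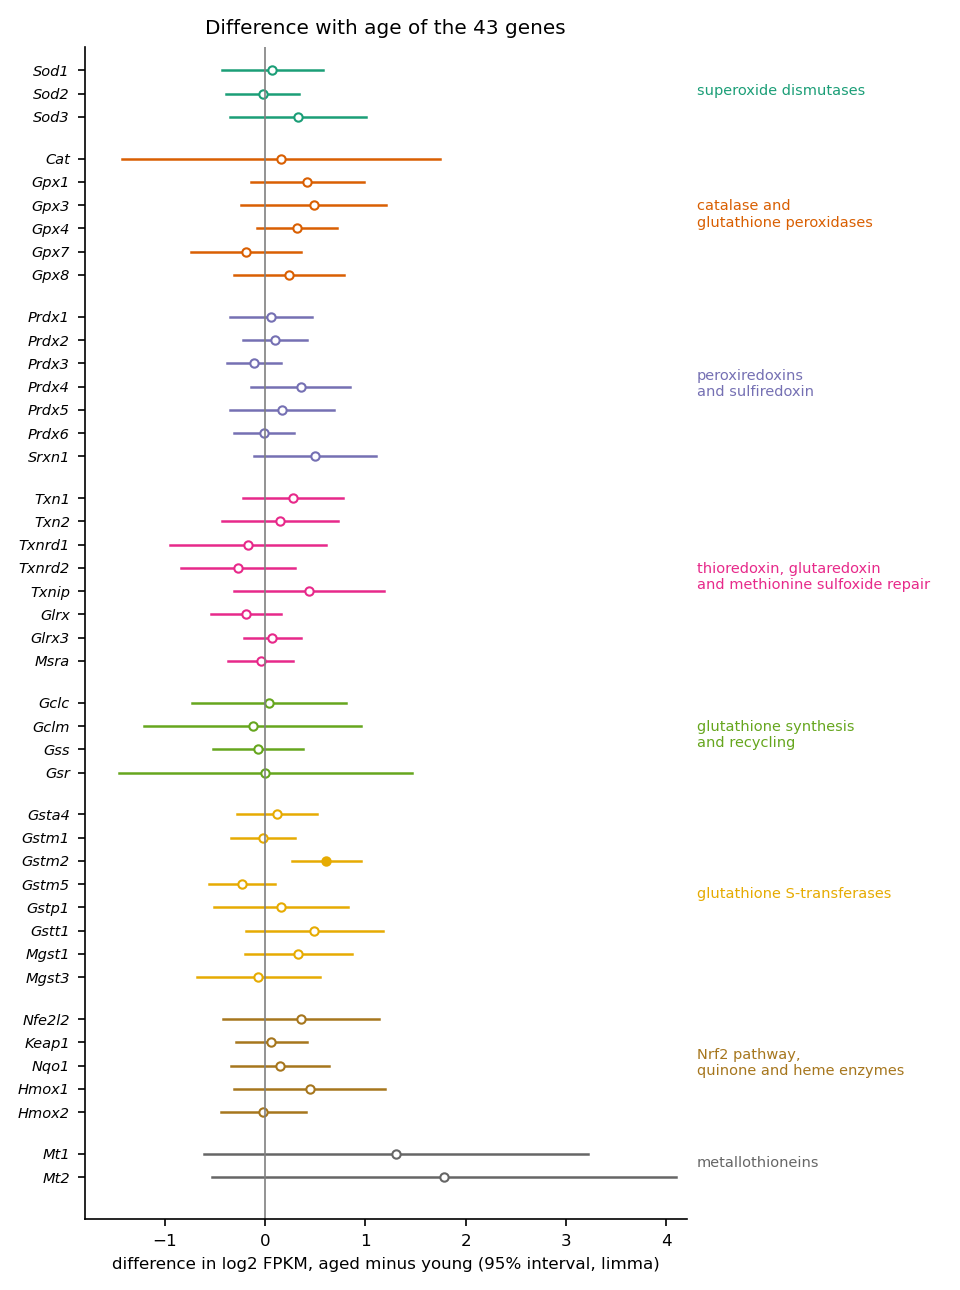
Difference in log2 FPKM between 5 aged and 5 young libraries (x axis, aged minus young) for each of the 43 genes, with the 95% interval from limma as a line; a filled point has an unadjusted p under 0.05. Gstm2, at 0.61, is the one filled point, and Mt1 and Mt2 have the highest differences and the longest intervals.

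Depth ran from 19886361 to 34554354 reads in the young libraries and from 20213093 to 31783514 in the aged ones, as recovered from the steps between the deposited values. Behind the members' values above 0 stood 25 to 9961 reads for a library, with the least for Gsr and the most for Txnip, and the one value listed at 0, of Gclc in aged library 3, says only that its FPKM was under 1. For a transcript of 1 kb, 1 FPKM stood for 19.9 to 34.6 reads, and differences below that level were not detectable. Aged library 3 stood apart from the others. It had 29878 transcripts above 0, against 35024 to 43296 in the other libraries, and was the highest library for 19 members and the lowest for 13. Over all genes it was the highest for 22.8% and the lowest for 40.0%. Young library 3 was the next lowest in transcripts above 0. Leaving out aged library 3 moved the difference of 33 of the 43 members by over 1.5 times or turned its sign, and the sign turned in 8, Sod1, Prdx5, Prdx6, Txn2, Txnrd1, Gclm, Gstp1 and Hmox2.

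**Figure D2:**
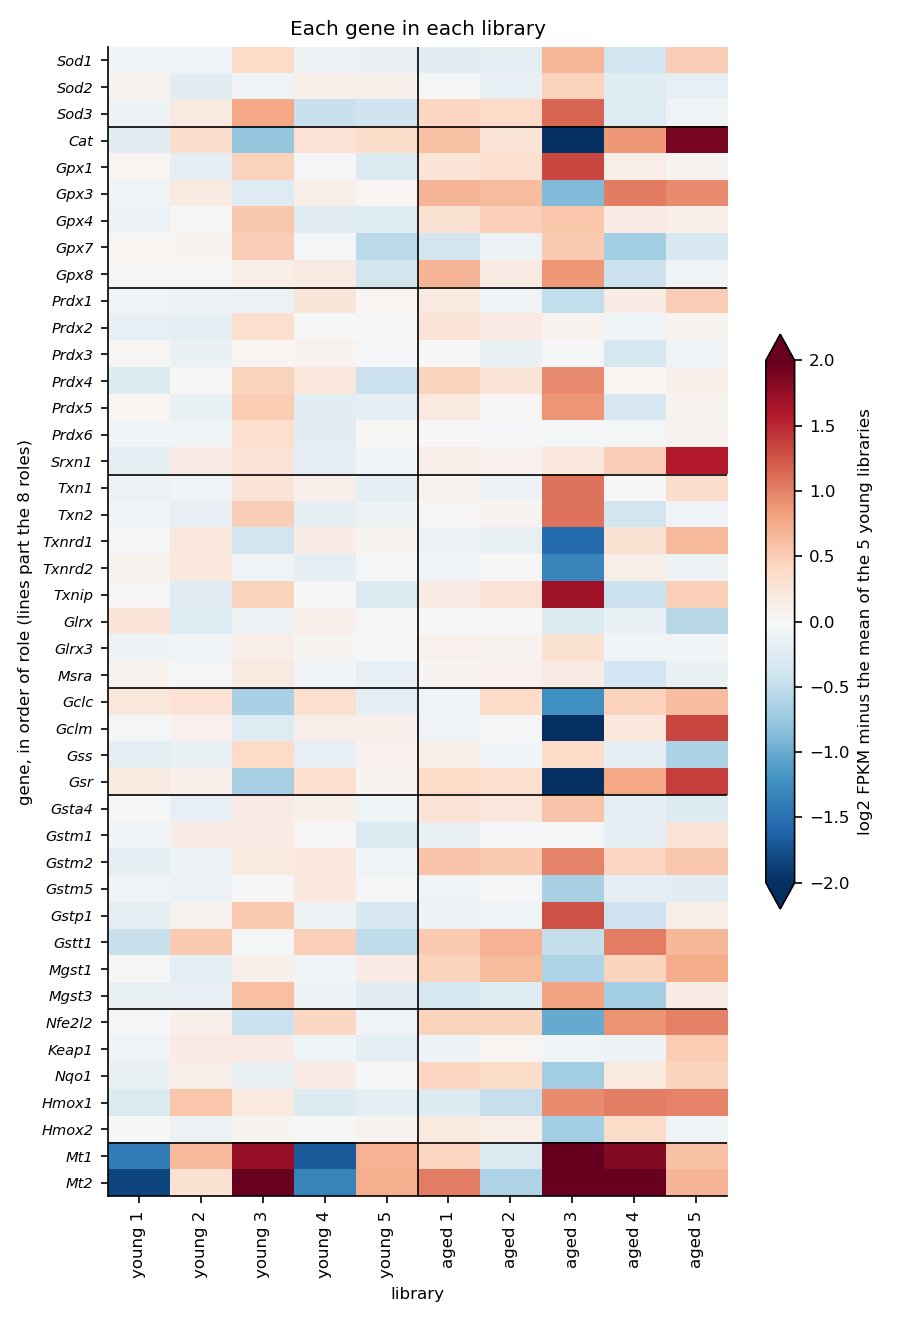
Log2 FPKM of each gene in each library minus the mean of the 5 young libraries, as color (values beyond 2 in size take the end colors). Aged library 3 has the darkest cells in both directions, and aged library 5 stands out in Cat, Gclm, Gsr and Srxn1.

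Among the superoxide dismutases, Sod1, the copper and zinc enzyme of the cytosol, had the highest level. Its log2 FPKM was 7.46, 7.46, 7.91, 7.44 and 7.41 in young libraries 1 to 5 and 7.32, 7.34, 8.20, 7.15 and 8.03 in aged libraries 1 to 5. The aged values covered the whole young range, and the difference of 0.07 ± 0.23 (SE) had an unadjusted p of 0.756 by limma. Differences are given ± SE and group means ± SD of 5 libraries throughout. Sod2, the manganese enzyme of mitochondria, averaged 5.18 ± 0.14 (SD, n = 5) in young and 5.15 ± 0.28 in aged muscle. Sod3, the secreted form, was the lowest of the 43 genes, at 1.00 ± 0.50 in young and 1.33 ± 0.55 in aged muscle. The aged library was above the young library of the same number in 5 of 5 pairs for Sod3. With the library number as a replicate block, its difference of 0.33 had an unadjusted p of 0.0271 by limma (adjusted p = 0.336), where without the block it was 0.306. The difference was 0.12 without aged library 3 and 0.52 without young library 3.

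Of catalase and the 5 glutathione peroxidases, 5 genes were above 0 in difference and 1 below, with a median of 0.28 and no call. Gpx4, which reduces lipid peroxides inside membranes, had the highest level of the 43 genes. It was read at Gpx4-003, a processed transcript of 516 bases that ends 1332 bases before the end of the gene. Its log2 FPKM there was 8.14, 8.29, 8.79, 8.05 and 8.02 in young and 8.56, 8.73, 8.81, 8.43 and 8.36 in aged libraries. The highest young value, of library 3, overlapped the aged group, which was otherwise higher, and the difference of 0.32 ± 0.18 had an unadjusted p of 0.103 by limma. In the coding Gpx4-002, which reaches the end of the gene, aged library 3 was at 9.19, above 7.89 to 8.27 in the other aged libraries. That transcript differed by 0.47 ± 0.27 in the fit on the longest transcripts (unadjusted p = 0.115 by limma). Gpx1, the cytosolic peroxidase, differed by 0.42 ± 0.25, with an unadjusted p of 0.126 by limma, and by 0.19 without aged library 3. In both genes the aged library was higher in 5 of 5 same-numbered pairs. With the replicate block the unadjusted p by limma was 0.0235 for Gpx1 and 0.0369 for Gpx4, with adjusted p of 0.323 and 0.362. For Gpx4, 29.6% of the stretches of read length (76 bases) in its annotated transcripts also occur in other genes, most of all the pseudogene Gpx4-ps2, so its value is uncertain to that extent.

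Gpx3, the secreted peroxidase of plasma, was singled out after its values were seen, because its transcripts gave different answers. Its transcript of highest level, Gpx3-003, is a short one of 693 bases that ends 843 bases before the end of the gene. It had 6.19, 6.45, 6.01, 6.39 and 6.30 in young and 6.95, 6.90, 5.39, 7.30 and 7.21 in aged libraries. Aged library 3 was below every young library, whereas the other 4 aged libraries were above them all, and the difference of 0.48 ± 0.33 had an unadjusted p of 0.168 by limma.

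The full-length transcript Gpx3-001, of 1594 bases, had 5.80, 6.06, 6.11, 5.92 and 5.86 in young and 6.65, 6.55, 6.89, 6.76 and 6.81 in aged libraries. Here every aged library was above every young one, aged library 3 included. In a fit on the longest transcript of each gene, which was added after the data were seen, the difference of Gpx3 was 0.78 ± 0.12 and its adjusted p 0.0467 by limma. It was the 1 member of 43 with an adjusted p under 0.05 in that fit, beside 0.138% of all genes, and the exact permutation p was 0.00794, the smallest that 5 libraries against 5 can give. With aged library 3 left out, the difference of Gpx3-003 was 0.82 and its adjusted p by limma 0.0492, and without both libraries numbered 3 they were 0.76 and 0.0717. In the fit to all transcripts, the adjusted p of Gpx3-001 by limma was 0.318.

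Catalase, the heme enzyme of peroxisomes, had the largest SE of any member after Mt2 and Mt1, and was singled out after its values were seen. Cat was read at Cat-002, a transcript of 779 bases that ends 746 bases before the end of the gene. It had 4.14, 4.72, 3.59, 4.66 and 4.73 in young and 4.95, 4.63, 1.56, 5.24 and 6.26 in aged libraries. The lowest and the highest of the 10 values were both aged, in libraries 3 and 5. The difference was 0.16 ± 0.72 with all libraries and 0.90 without aged library 3, when the unadjusted p by limma was 0.0261 (adjusted p = 0.303). Without both libraries numbered 3 it was 0.71, with an unadjusted p of 0.0587 by limma, and without aged library 5 it was -0.27. The full-length Cat-001 was at 2.83 in aged library 3 and 5.93 in aged library 5. In the fit on the longest transcripts it differed by 0.41 ± 0.46 (unadjusted p = 0.398 by limma). Gpx7 and Gpx8, peroxidases of the endoplasmic reticulum, differed by -0.19 and 0.24 at low levels, and the groups overlapped in both. Without aged library 3 the values were -0.37 and 0.086.

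**Figure D3:**
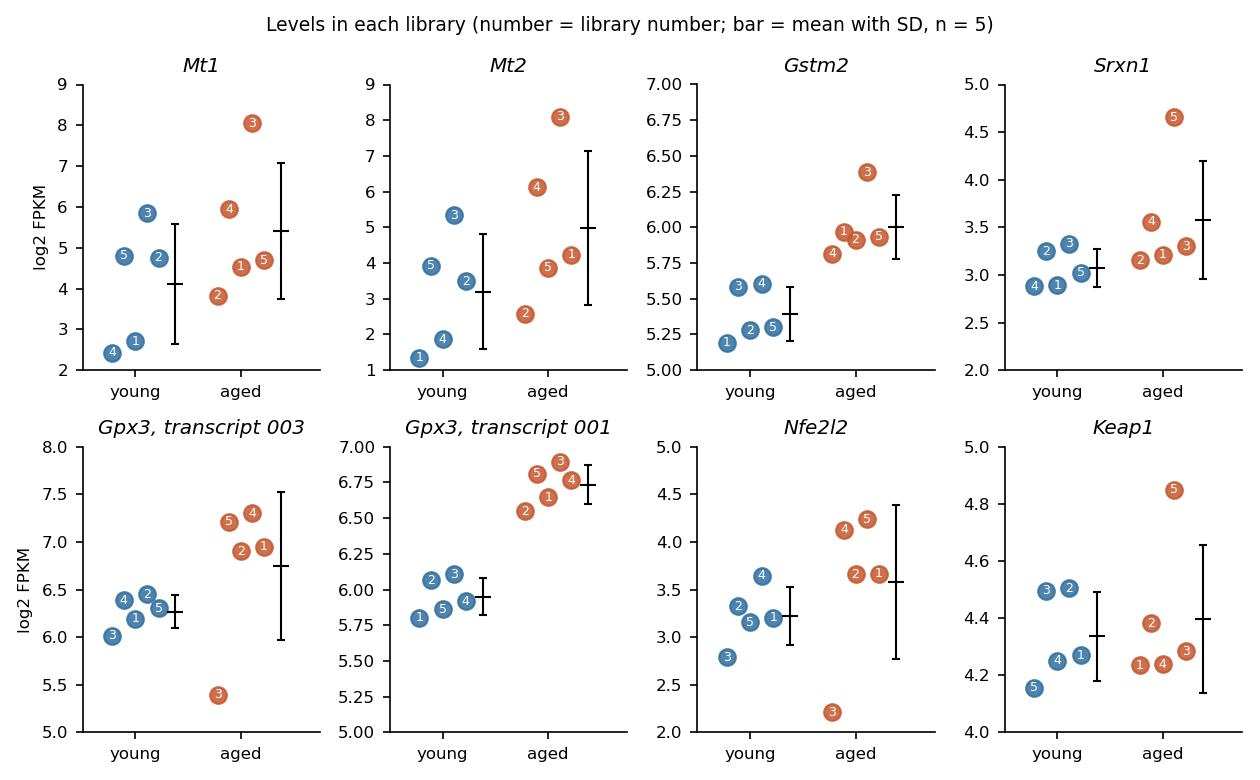
Log2 FPKM of 6 genes and of 2 transcripts of Gpx3 in each library (points, with library numbers) for young (blue) and aged (orange) mice, with the mean and SD (n = 5) beside each group. The groups do not overlap for Gstm2 and for transcript 001 of Gpx3, while aged library 3 falls to 5.39 in transcript 003.

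Of the 6 peroxiredoxins and sulfiredoxin, none passed, and their differences ran from -0.11 to 0.50. Prdx1, a cytosolic peroxiredoxin and the most abundant of them per length, had 7.19, 7.14, 7.14, 7.50 and 7.28 in young and 7.43, 7.20, 6.76, 7.40 and 7.74 in aged libraries. The aged libraries lay on both sides of the young range, with a difference of 0.06 ± 0.18. These are values of Prdx1-004, which ends 6980 bases before the end of the gene. The full-length Prdx1-001 ran from 5.81 to 6.13 in young and from 5.88 to 6.56 in aged libraries. It differed by 0.23 ± 0.16 in the fit on the longest transcripts (unadjusted p = 0.169 by limma). Prdx3 and Prdx5, which act in mitochondria, differed by -0.11 and 0.16, and Prdx2 and Prdx6 by 0.10 and -0.01. Prdx4, of the endoplasmic reticulum and at a low level, differed by 0.35 ± 0.22. Without aged library 3, Prdx5 was at -0.015 and Prdx4 at 0.21 in difference. For Prdx3 the aged library was the lower in all 5 same-numbered pairs, by an amount that made its unadjusted p 0.381 by limma.

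Sulfiredoxin, Srxn1, repairs peroxiredoxins that peroxide has over-oxidized. It had 2.89, 3.25, 3.33, 2.88 and 3.02 in young and 3.21, 3.15, 3.30, 3.56 and 4.66 in aged libraries. Library 5 was far above the other aged libraries, of which 3 fell inside the young range. The difference was 0.50 ± 0.28, with an unadjusted p of 0.0963 by limma and an exact permutation p of 0.0714. Without aged library 5 it was 0.23.

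The thioredoxin group split evenly, with 4 of 8 differences above 0 and 4 below, a median of 0.01 and no call. Txnip, the alpha-arrestin that binds thioredoxin and limits glucose uptake, had the highest level of the group. Its transcript Txnip-005, of 599 bases near the end of the gene, had 7.36, 7.13, 7.79, 7.34 and 7.07 in young and 7.49, 7.62, 9.03, 6.91 and 7.82 in aged libraries. Aged library 3 was 1.57 above the mean of the other aged libraries, and the groups overlapped (difference 0.44 ± 0.34, unadjusted p = 0.225 by limma). Without aged library 3 the difference was 0.12.

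The full-length Txnip-001 had 7.48, 7.12, 7.15, 7.54 and 7.28 in young and 7.45, 7.69, 7.41, 7.36 and 7.88 in aged libraries. Library 3 was within the range of the other aged libraries there, and the difference was 0.24 ± 0.15 in the fit on the longest transcripts (unadjusted p = 0.134 by limma). Txn1 and Txn2, the cytosolic and mitochondrial thioredoxins, differed by 0.28 and 0.15, and their reductases Txnrd1 and Txnrd2 by -0.17 and -0.27. Leaving out aged library 3 gave 0.077 for Txn1, -0.090 for Txn2, 0.17 for Txnrd1 and -0.015 for Txnrd2. Glrx and Glrx3, glutaredoxins, differed by -0.20 and 0.07, and Msra, which reduces oxidized methionine, by -0.05.

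Glutathione synthesis and recycling showed no call. Gclm, the modifier subunit of the enzyme that limits glutathione synthesis, had 3.02, 3.14, 2.81, 3.18 and 3.16 in young and 3.00, 3.03, 1.01, 3.27 and 4.39 in aged libraries. The young values lay close together, and the aged values of libraries 3 and 5 lay far below and above them. Its difference was -0.12 ± 0.49 with all libraries and 0.30 without both libraries numbered 3. Gclc, the catalytic subunit, was listed at 0 in aged library 3 and lay between 1.16 and 1.84 in the other aged libraries. Gsr, which restores oxidized glutathione, was read at Gsr-003, a processed transcript of 718 bases that ends 12511 bases before the end of the gene. That transcript was at 0.13 in aged library 3 and between 3.31 and 4.36 in the other aged libraries. Young libraries had 2.31 to 3.31. The full-length Gsr-001 was at 2.68 in aged library 3, within the 2.51 to 2.78 of the young libraries. Its difference was 0.43 ± 0.20 in the fit on the longest transcripts (unadjusted p = 0.0576 and adjusted p = 0.573 by limma, exact permutation p = 0.0238). Gss, which completes glutathione, differed by -0.07.

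The glutathione S-transferases held the one call. Gstm2, a mu class transferase encoded on chromosome 3 from 107981702 to 107986420 (GRCm38) in a cluster with Gstm1 and Gstm5, had 5.19, 5.28, 5.58, 5.60 and 5.30 in young libraries. It had 5.97, 5.91, 6.38, 5.82 and 5.93 in aged libraries. The lowest aged value exceeded the highest young one, as in 2.08% of all genes (the reverse held in 0.344%), and library 3 was the highest of the aged. The difference was 0.61 ± 0.16, or 1.53-fold, with an unadjusted p of 0.00247 and an adjusted p of 0.316 by limma. The exact permutation p was 0.00794.

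The other transcripts of Gstm2 share sequence with it and also differed upward. In the fit to all transcripts Gstm2-001, which reaches the end of the gene, differed by 0.66 (unadjusted p = 0.0065 by limma) and the retained-intron Gstm2-003 by 0.47 (0.0187). Gstm2-004, another retained-intron form, had a difference of 0.34 (unadjusted p = 0.253 by limma) and its lowest aged value, 3.34, in library 3. Of its stretches of read length, 1.79% occur in other genes. Of its neighbors, neither of which was called, Gstm1 averaged 6.54 ± 0.18 in young and 6.51 ± 0.17 in aged muscle and Gstm5 6.60 ± 0.12 and 6.37 ± 0.24. The difference of Gstm5 was -0.23, and -0.13 without aged library 3. For Gstm1, 11.4% of the stretches of read length are shared with other genes.

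Gstp1, the pi class transferase and the most abundant of the group per length, had 6.75, 7.00, 7.46, 6.84 and 6.62 in young and 6.83, 6.86, 8.21, 6.52 and 7.03 in aged libraries. The highest value of each group was that of library 3, and the difference was 0.16 ± 0.30. A share of 29.0% of its stretches of read length occurs in other genes, most of all Gstp2. Gstt1, a theta class enzyme, differed by 0.49 ± 0.31 and the microsomal Mgst1 by 0.33 ± 0.24, or 0.57 without aged library 3. In the fit on the longest transcripts, Gstt1 differed by 0.59 (unadjusted p = 0.0289) and Mgst1 by 0.41 (0.0347) by limma. Gsta4, which conjugates products of lipid peroxidation, and the microsomal Mgst3 differed by 0.12 and -0.07, and by 0.0070 and -0.29 without aged library 3.

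In the Nrf2 pathway, Nfe2l2 had 3.20, 3.32, 2.79, 3.64 and 3.16 in young and 3.67, 3.66, 2.21, 4.13 and 4.24 in aged libraries. Aged library 3 was the lowest of all 10, and the other 4 aged libraries were above every young one. The difference was 0.36 ± 0.35 (unadjusted p = 0.331, limma) with all libraries and 0.59 ± 0.18 (unadjusted p = 0.00878, adjusted p = 0.203, limma) without both libraries numbered 3. It was 0.70 without aged library 3, 0.22 without aged library 4 and 0.19 without aged library 5. Keap1, which marks Nrf2 for degradation, had 4.27, 4.50, 4.50, 4.25 and 4.16 in young and 4.23, 4.38, 4.28, 4.24 and 4.85 in aged libraries. Of the aged values, 4 were inside the young range and that of library 5 was above it, for a difference of 0.06 ± 0.16.

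The quinone reductase Nqo1, a widely used Nrf2 target, differed by 0.15 ± 0.22, by 0.36 without aged library 3 and by 0.075 without aged library 5. The heme oxygenases Hmox1, the inducible form, and Hmox2, the constitutive one, differed by 0.44 ± 0.34 and -0.02 ± 0.19. Hmox2 had 4.52, 4.41, 4.58, 4.54 and 4.60 in young and 4.72, 4.66, 3.86, 4.89 and 4.44 in aged libraries. Its aged values fell on both sides of a narrow young range. These are values of Hmox2-005, which ends 1652 bases before the end of the gene. In Hmox2-001, which reaches that end, aged library 3 was the highest, at 4.24.

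The metallothioneins Mt1 and Mt2, small cysteine-rich proteins that bind zinc and copper and are induced by metals, glucocorticoids and oxidants, had the highest differences and the widest spread of the 43 genes. They lie side by side on chromosome 8, Mt2 from 94172618 to 94173567 and Mt1 from 94178883 to 94180327 (GRCm38). The 4 stretches given here are the metal response element cores, TGCACNC and TGCGCNC searched on both strands, that lie before the start used in the RefSeq promoter windows of GRCm38.p6. For Mt1 that start is not the first base of the annotated gene, and the stretch printed lies inside the gene as given above. Capitals mark the core, and each stretch is written 5′ to 3′ on the strand of the core.

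Mt1, chr8:94179055-94179083, plus strand: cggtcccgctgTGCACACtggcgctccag
Mt2, chr8:94172384-94172412, plus strand: agcatcgcctcTGCACCCggcccctcggg
Mt2, chr8:94172479-94172507, plus strand: cgcagacccttTGCGCTCagctcctttgc
Mt2, chr8:94172557-94172585, minus strand: gggacagagccTGCACACgccctcccccc

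The windows run from 250 bases before to 50 bases after the start. Mt1 had 3 cores in its window and Mt2 had 4, and 3 or more were found in 2.0% of the windows of 27025 genes and 4 or more in 0.503%. Of the 36 members with a window, 13 (36.1%) had at least 1 core, beside 25.6% of all genes, and 3 (8.33%) had 3 or more, Gclm, Mt1 and Mt2. These are letter matches and not measured sites.

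Mt1 had 2.71, 4.76, 5.84, 2.42 and 4.80 in young and 4.53, 3.82, 8.05, 5.95 and 4.69 in aged libraries. Mt2 had 1.35, 3.49, 5.34, 1.86 and 3.93 in young and 4.23, 2.58, 8.09, 6.13 and 3.87 in aged libraries. In both genes library 3 was the highest of its group, young libraries 1 and 4 were the lowest of all, and the groups overlapped. The range of Mt2, from 29 to 4816 reads, was the widest of the members on the log2 scale.

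The difference with age was 1.30 ± 0.87 for Mt1, or 2.47-fold, with a 95% interval from -0.61 to 3.22 and an unadjusted p of 0.162 by limma. It was 1.78 ± 1.05 for Mt2, or 3.44-fold, with an interval from -0.53 to 4.10 and a p of 0.117. The aged library was the higher in 3 of 5 same-numbered pairs for each gene. With the replicate block the unadjusted p of Mt2 by limma was 0.0495 and the adjusted p 0.393. Without both libraries numbered 3 the differences were 1.08 for Mt1 and 1.54 for Mt2, with unadjusted p of 0.134 and 0.0879 by limma. Without aged library 2 that of Mt2 was 2.38, with an unadjusted p of 0.0412 by limma (adjusted p = 0.679), and without aged library 3 the differences were 0.64 for Mt1 and 1.01 for Mt2.

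Mt1 and Mt2 moved together over the 10 libraries. Pearson's r was 0.979 (permutation p = 3e-05, adjusted over the 4 coefficients of 2 relations 6e-05) and Spearman's rho 0.903 (p = 0.0009, adjusted 0.0009). For deviations from the group means, r was 0.976 (permutation p = 1e-05, the smallest that 100000 resamples can give, adjusted 4e-05) and rho 0.915 (p = 0.0005, adjusted 0.0007). Without the 2 libraries farthest from the median, r was 0.971 for the levels and 0.936 for the deviations.

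**Figure D4:**
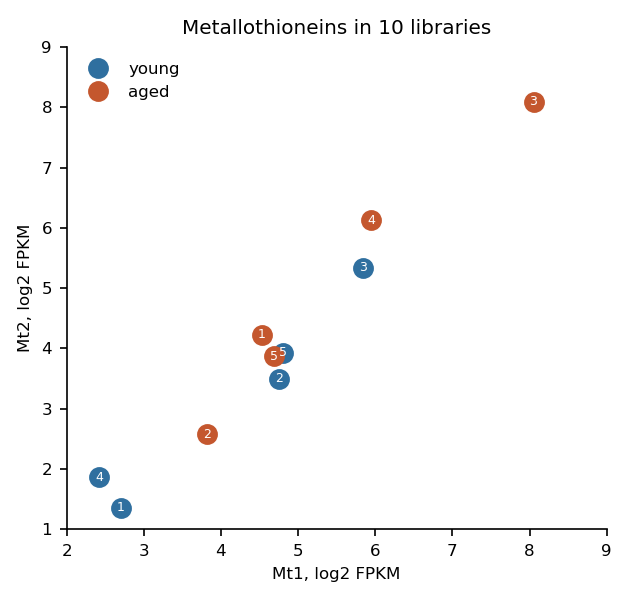
Log2 FPKM of Mt2 (y axis) against Mt1 (x axis) in 5 young (blue) and 5 aged (orange) libraries, numbered as in the labels. The points follow 1 line over both ages, from young libraries 1 and 4 at the bottom to aged library 3 at 8.05 and 8.09.

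The 5 genes outside the list whose levels over the 10 libraries were most like the mean of Mt1 and Mt2, of 8174 genes above 0 in every library, were Ucp2, Ifi35, Efhd2, Sh3bgrl3 and Pltp, with r from 0.911 to 0.940. As they were chosen for it, this is a description, and all were highest in aged library 3. None had an unadjusted p under 0.05 by limma with age. Mtf1, the factor that binds metal response elements, averaged 1.11 ± 0.11 in young and 1.19 ± 0.25 in aged muscle. Slc30a1, the zinc exporter that Mtf1 also controls, averaged 0.67 ± 0.41 and 0.89 ± 0.63.

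The antioxidant response element core, TGACNNNGC on either strand, was found in the window of 8 of 36 members (22.2%), beside 12.5% of all genes. Its letters overlap those of the binding site of AP-1. The stretches before the start are given on the strand of the core, with the core in capitals, for the members that also took part in the pattern of aged libraries 3 and 5 described next. That pattern was read on the transcripts of highest mean, and Prdx1 and Mgst1 did not show it on their longest transcripts.

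Gclm, chr3:122245413-122245441, minus strand: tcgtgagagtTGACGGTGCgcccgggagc
Mgst1, chr6:138140461-138140489, minus strand: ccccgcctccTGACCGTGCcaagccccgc
Nfe2l2, chr2:75704885-75704913, minus strand: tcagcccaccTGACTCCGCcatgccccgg
Prdx1, chr4:116685456-116685484, minus strand: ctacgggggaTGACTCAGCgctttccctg

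In these windows of one start for each gene, Gstm2 and Gpx3 held no such core, which says nothing of other positions. Sod1, Gstm5, Mt2 and Srxn1 were the other 4 members with one, and Cat, Nqo1 and Txnrd1, of the same pattern, had none. Gclc and Gsr, also of that pattern, were not among the 36 members with a window.

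Some members were lowest in aged library 3 and highest in aged library 5. Cat, Gclc, Gclm, Gsr, Mgst1, Nfe2l2, Nqo1, Prdx1 and Txnrd1, 9 of 43 (20.9%), had their lowest value in the former and their highest in the latter, beside 13.2% of all genes. On their longest transcripts Prdx1, Gsr and Mgst1 did not show this pattern. Prdx1-001 was highest in aged library 3, at 6.56 against 6.37 in aged library 5. Gsr-001 was at 2.68 in aged library 3 and 2.51 in young library 5, and Mgst1-001 at 4.57 and, in young library 2, 4.52. The other 4 of the 13 members lowest in aged library 3 were Gpx3, Gstm5, Hmox2 and Txnrd2, and the other 3 of the 12 highest in aged library 5 were Gstm1, Keap1 and Srxn1. On transcripts that reach the end of the gene, Gpx3-001 (6.89), Hmox2-001 (4.24) and Txnrd2-001 (3.58) were instead highest in aged library 3. Gstm5-001 was lowest in aged library 5, at 6.00. The 19 members highest in aged library 3 included Sod1, Sod2, Sod3, Gpx1, Gpx4, Txn1, Txn2, Gstp1, Mt1 and Mt2.

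The position of a transcript's end went with its level in library 3. Lengths recovered from the values matched 1 annotated transcript for 26 of the 43 members. Of the members' transcripts above 0 in at least 9 libraries and so matched, 47 ended within 100 bases of the gene's 3′ end and 60 ended farther away. The median of aged library 3 minus the other aged libraries was 0.42 for the former and -0.69 for the latter, and over all genes it was -0.08 for 10073 and -1.26 for 16309 transcripts. In young library 3 the medians of the members were 0.38 and 0.12. Within 1 gene, aged library 3 was at 3.95 in Txnip-003, a retained-intron form that ends 1870 bases before the end of the gene, and at 9.03 in Txnip-005. The part of these positions in the differences with age was not tested.

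**Figure D5:**
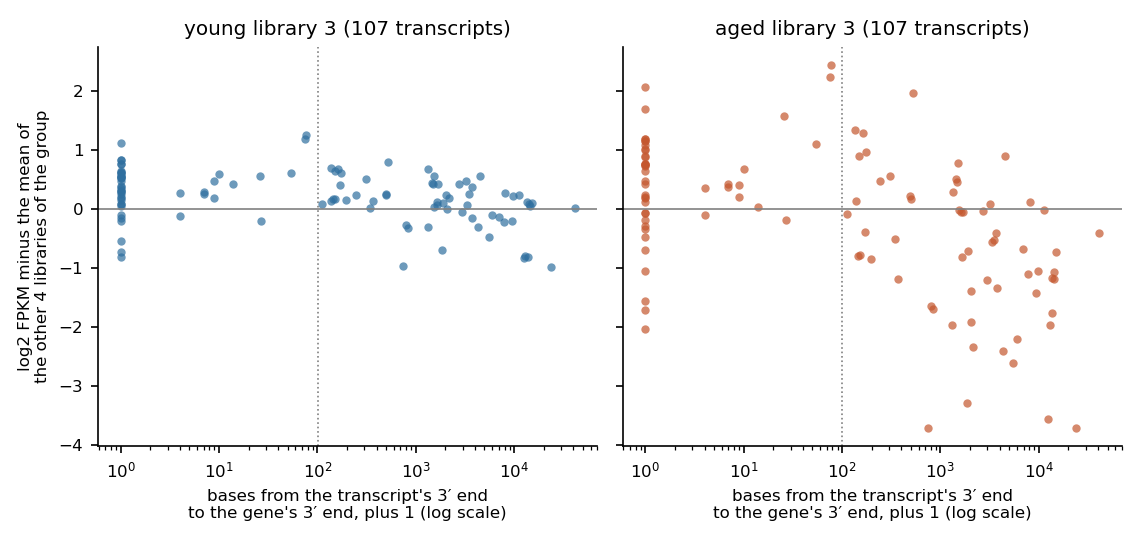
Log2 FPKM in library 3 minus the mean of the other 4 libraries of its group (y axis) against the distance from the transcript's 3′ end to the gene's 3′ end (x axis, log scale), for transcripts of the members in young (left) and aged (right) mice. In the aged library most points left of the dotted line, at 100 bases, lie above 0 and most to its right lie below.

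Without both libraries numbered 3, 9 members were higher in aged muscle at an unadjusted p under 0.05 by limma. They were Gpx1, Gpx3, Gpx4, Gsr, Gstm2, Gstt1, Mgst1, Nfe2l2 and Nqo1, with differences from 0.31 to 0.76. That is 9 of 43 beside 13.9% of all genes, with 0 lower beside 1.48%, and 0 members had an adjusted p under 0.05 beside 0.167% of all genes. With the replicate block in that fit 10 members were higher, with Sod3 and Cat added and Nqo1 lost, beside 14.1% of all genes. In the 9 genes without the block every aged library was above every young one, as in 9.92% of all genes. Of the 9, Gpx1, Gpx3 and Gpx4 are peroxidases, Gsr restores glutathione, and Gstm2, Gstt1 and Mgst1 conjugate it to other molecules. Nfe2l2 and Nqo1 are of the Nrf2 pathway. The glutathione genes Gclc, Gclm, Gss, Gstm1, Gstm5, Gstp1, Gsta4, Mgst3, Gpx7 and Gpx8 were not called in that fit without the block. On the longest transcript of each gene with all libraries, 4 members, Gpx3, Gstm2, Gstt1 and Mgst1, were higher beside 7.95% of all genes and 0 were lower beside 1.1%. On the longest transcripts without both libraries numbered 3, 9 members were higher beside 14.6% of all genes and 1 had an adjusted p under 0.05 beside 0.286%. Without aged library 3 alone, 8 were higher beside 13.6% and 1 had an adjusted p under 0.05 beside 0.295%, and with the mean over the transcripts of a gene 3 were higher beside 5.63%. On the longest transcripts with all libraries the groups did not overlap for Gpx3 and Gstm2, as in 2.36% of all genes. With the replicate block, 5 members were higher, Sod3, Gpx1, Gpx4, Gstm2 and Mt2, beside 10.8% of all genes, and 0 were lower beside 1.92%.

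Other genes of these pathways were read from 8 lists with 135 genes, of which 104 were tested. At an unadjusted p under 0.05 by limma 9 were higher (8.65%) and 2 lower (1.92%), with 0 adjusted, a median of 0.11, beside 6.75% and 0.984% of all genes. Of 9 enzymes tested that supply NADPH, 3 were higher. Idh2, the mitochondrial isocitrate dehydrogenase, differed by 0.68, Nnt, the mitochondrial transhydrogenase, by 0.60 and Pgd, of the pentose phosphate pathway, by 0.43.

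Chac1, which breaks down glutathione, was the 1 gene higher among 24 other glutathione and thiol enzymes. It averaged 4.69 ± 0.79 in young and 6.38 ± 0.22 in aged muscle, and the groups did not overlap (difference 1.70, unadjusted p = 0.000401, adjusted p = 0.177 by limma). Maff, a small Maf protein that pairs with Nrf2, was the 1 gene higher among 22 Nrf2 partners and targets, at 0.51 ± 0.35 and 1.94 ± 0.49 (difference 1.44). The groups of Maff did not overlap either, and its adjusted p was 0.103 by limma.

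Vimp, a selenoprotein of the endoplasmic reticulum and the 1 called of 7 selenoproteins tested, differed by 0.35. Slc30a2, a zinc transporter, differed by -0.70 and was the 1 called of 15 genes of metal transport, where the median was 0.12. Without both libraries numbered 3 it was -0.54 and not called, and 2 genes of that list were higher. Cyba, a subunit of the phagocyte NADPH oxidase, differed by 1.17 and was the 1 called of 6 sources of superoxide or peroxide. Of 10 alpha-arrestins and glucose-responsive genes, Arrdc1 and Arrdc4 differed by 0.91 and 0.52, and Slc2a4, the insulin-responsive glucose transporter, by -0.35. None of 13 glucocorticoid and fasting responsive genes was called, with a median of 0.22, and 3 were higher without both libraries numbered 3. Without them 2 genes in place of 1 were higher among the other glutathione enzymes, the selenoproteins, the Nrf2 partners and the sources of superoxide, and 3 in place of 2 among the alpha-arrestins and glucose-responsive genes. Over all genes the share higher rose likewise, from 6.75% to 13.9%.

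Of 10 leukocyte markers tested, 8 were higher in aged muscle at an unadjusted p under 0.05 by limma, with a median difference of 1.38. Their summed FPKM was 22.1 to 57.3 in young and 42.3 to 212 in aged libraries, with libraries 3 and 4 the highest. Cd52, Fcer1g, Tyrobp and C1qb had the largest differences, from 1.56 to 2.08. Cd52 was listed at 0, an FPKM under 1, in young libraries 1, 2, 4 and 5, and Fcer1g in young library 1. Cd52 was at 4.66 and 4.01 in aged libraries 3 and 4, against 0.16 to 1.21 in the other aged libraries. Without both libraries numbered 3, 5 of the 10 were higher, with C1qa, C1qc and Cd52 lost, beside 13.9% of all genes. Of 9 immediate early genes that respond to tissue handling, Fos, Junb, Egr1 and Ier2 were higher, by 1.33 to 3.53, with summed levels of 63.0 to 246 in young and 106 to 222 in aged libraries. Without both libraries numbered 3 the count was again 4, with Atf3 added and Ier2 lost. The part of either list in the values of the 43 genes was not tested.

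The defining markers of the tissue were present. The 10 fast fiber markers summed to 140156 to 174042 FPKM in young and 126792 to 175519 in aged libraries, with none called, and 1 lower without both libraries numbered 3. Of 8 slow fiber markers, Myl3 was higher by 1.60 (2 genes were higher without both libraries numbered 3), and their sums ran from 35.1 to 355 and from 72.9 to 1072. The 5 erythroid markers tested, whose cells are rich in peroxiredoxins and catalase, showed no call, with sums of 259 to 460 and 268 to 814, and Slc4a1 was listed at 0. Of 7 adipocyte and 9 endothelial markers tested, none was called, and 1 adipocyte marker was higher without both libraries numbered 3. Col3a1, of 8 fibroblast markers, differed by -1.03, and without those libraries 3 of the 8 were lower and 1 higher. In the fit without them, 13.9% of all genes were higher and 1.48% lower.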

How the data were processed

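Poly-A RNA of gastrocnemius muscle was sequenced as paired reads by the authors, who mapped them to mm10 with TopHat2 and Bowtie2, computed FPKM and deposited log2 values for 92251 transcripts, with FPKM under 1 listed as 0. The counting program is not given in the sources used here. The methods name a RefSeq gene model, while the deposited rows carry Ensembl and Vega transcript names, and 233 rows have no name and were left out. The methods and the series record name different sequencers.

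Each gene was taken at its transcript of highest mean. Genes with a mean FPKM of at least 1 were tested with limma 3.58.1 (R 4.3.3) on the deposited log2 values without a pseudocount, with age as the only term, and Benjamini-Hochberg adjustment over 10161 genes. For single genes, an exact permutation test over the 252 orderings, two-sided, has 0.00794 as its smallest p. The pipeline was tested on simulated data. With 5 mice in each group, p-values measure the spread between mice. The members and lists were chosen with earlier results of these data known. Values in every library are given for Mt1, Mt2, Txnip, Nfe2l2, Keap1, the highest member of each of 8 roles, and members with an unadjusted p under 0.05 or a difference over 0.5, and for Gpx3 and Cat, chosen after their values were seen. Of the lists, genes with an unadjusted p under 0.05 are named, at most 4 each.

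Deviations from the group means, compared between the young and the aged library of each number from 1 to 5, correlated at 0.181, 0.335, 0.626, 0.298 and 0.189, so a replicate block was also fitted. The mice are different and the labels do not say what a number shares. Depth and transcript length were recovered from the steps of the values, with 99.99% of 40794 transcripts whole within 0.05 reads, and were used for description. Positions and promoter windows are RefSeq GRCm38.p6, matched by symbol, with the first listed start of each gene, and 36 of 43 members matched a window. Transcript ends are GENCODE vM21 of the same build. Stretches of read length were 76 bases of any annotated transcript of the gene. Tables and permutations were made in Python 3.11.15 (pandas 2.3.3, numpy 2.4.6), with scipy 1.17.1 for ranks and the study's criteria, and plots in matplotlib 3.10.9. Small RNA libraries were not used here. Some marker genes are not reported here.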

Additional observations from a re-analysis of the deposited data

Results flagged for a closer look

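Among the 26 groups of 5 libraries of the 13 members named by the rule, 5 had a library whose gap to the nearest other exceeded 0.71 of the group's range (Dixon's limit for 5 values), where chance gives about 1 in 20. Gstm2 was at 6.38 in aged library 3, above 5.82 to 5.97 in the other aged libraries. Nfe2l2 was at 2.21 in aged library 3, below 3.66 to 4.24. Srxn1 was at 4.66 and Keap1 at 4.85 in aged library 5, above 3.15 to 3.56 and 4.23 to 4.38. Sod1 was at 7.91 in young library 3, above 7.41 to 7.46. Of the 5, 3 fell in libraries numbered 3 and the other 2 in aged library 5.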

How the results depend on the processing

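Gstm2 stayed higher at an unadjusted p under 0.05 in all 24 alternatives by limma (differences of 0.52 to 0.66, adjusted p of 0.103 to 0.764), although the exact p over the signs of same-numbered pairs was 0.0625, the smallest 5 pairs allow. The count of members higher at an unadjusted p under 0.05 was 3 with the mean over transcripts, 5 with the replicate block, 9 without both libraries numbered 3 and 10 with the block as well, which added Sod3 and Cat and lost Nqo1 (unadjusted p = 0.0506 by limma). Chosen after seeing the data, the longest transcripts gave 4, and 9 without those libraries, with 1 member at an adjusted p under 0.05 (Gpx3) in each (805 and 1480 of 10128 genes higher). Leaving out 1 library gave 1 to 8 higher and 0 to 1 adjusted, with 8 and 1 without aged library 3 (1377 of 10161 genes higher and 30 adjusted), 2 without young library 3 (Gpx4 added) and 2 without aged library 2 (Mt2 added). With the median of ratios 1 member was lower, Gstm5 (-0.29). With all libraries the block changed neither the count of members lower nor that at an adjusted p under 0.05. Small differences changed sign. Gclm was 0.30 without both libraries numbered 3, with or without the block, and 0.23 with the longest transcripts besides. Hmox2 was 0.16 under each of those, 0.16 with the longest transcripts and 0.075 with the mean. With the median of ratios Keap1 was -0.0017, Prdx1 -0.0079 and Gsr -0.060, and with quantile normalization Keap1 was -0.0062 and Sod1 -0.022. Leaving out 1 library turned the sign of 18 of the 43 differences, and among the members tried under every setting it moved Cat from -0.27 to 0.90, Gclm from -0.49 to 0.36, Gsr from -0.34 to 0.72, Gstp1 from -0.12 to 0.30, Hmox2 from -0.11 to 0.15, Keap1 from -0.051 to 0.10, Prdx1 from -0.051 to 0.19 and Sod1 from -0.076 to 0.19, each extreme without an aged library, except the upper one of Keap1 (young 2). The cause was not tested. The median of the members stayed above 0 in all 24, and 0 met the study's criteria with the equal-variance and the alternative test. Reads were fewest for Gsr, Gstt1 and Mt2, with 25, 27 and 29 in the lowest library, and Gclc is listed at 0 in aged library 3. The 25 reads of Gsr were also in aged library 3, whose depth of 31783514 was the highest of the aged libraries.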
